A study of Mus musculus with 12 samples.

Results

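The genes of the Wnt pathway were followed in spermatogonia, the mitotic germ cells of the mouse testis. The members were all genes named as a Wnt ligand, a Frizzled receptor (Fzd), a Dickkopf (Dkk) or secreted Frizzled-related protein (Sfrp), an R-spondin (Rspo), the receptors Lgr4, Lgr5 and Lgr6, the scaffolds Axin1 and Axin2, or the transcription factors Tcf7, Tcf7l1, Tcf7l2 and Lef1. This choice was made by name and gave 50 of the 55385 genes in the table: 19 ligands, 10 Frizzled receptors, 4 R-spondins, 3 LGR receptors, 4 Dickkopf proteins, 4 Sfrp proteins, 2 Axin scaffolds and 4 TCF/LEF factors.

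RNA-seq was available for 12 libraries in 6 groups of 2, each library made from sorted and pooled cells. Undifferentiated spermatogonia (Aundiff) were sorted as E-Cadherin+ CD9 high KIT- cells and early differentiating spermatogonia (Adiff) as E-Cadherin+ CD9 medium KIT+ cells. WT Aundiff and WT Adiff came from adult, untreated C57BL/6 mice. The other 4 groups were Aundiff from mice of mixed C57BL/6 and FVB/NJ background that all lacked Ring1. PRC1cKO mice were Ring1-/-; Rnf2 F/-; Ddx4-Cre, and their littermate controls, PRC1ctrl, were Ring1-/-; Rnf2 F/+; Ddx4-Cre. RING1 and RNF2 are the catalytic subunits of Polycomb repressive complex 1 (PRC1), and Ddx4-Cre acts in germ cells. By genotype, somatic cells of the testis therefore stayed Rnf2 F/- in PRC1cKO and Rnf2 F/+ in PRC1ctrl, and differed between the labels as well. PRC1ctrl and PRC1cKO were each sampled untreated, at 2 months of age, and after about 30 daily injections of 40 µg/µl Win18446 in 50 µl DMSO begun at 1 month of age. Win18446 inhibits the synthesis of retinoic acid, the signal for spermatogonial differentiation. The untreated PRC1 libraries were made with a low-input kit (Smart-Seq2 method) and all others with a stranded mRNA kit (TruSeq), so treatment and kit cannot be told apart.

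In the canonical Wnt pathway a ligand binds a Frizzled receptor and an LRP co-receptor, the AXIN-based destruction complex is held back, and beta-catenin enters the nucleus, where TCF/LEF factors carry it to target genes. R-spondins act through LGR receptors to keep Frizzled receptors on the cell surface, and SFRP proteins capture ligands outside the cell. Other Wnt ligands act through Frizzled receptors without beta-catenin, for example in planar cell polarity. In the testis, Wnt signalling is known to take part in the upkeep and proliferation of spermatogonia.

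Levels are in TPM, each gene's share of the transcripts in its library after correction for length, which lets different genes be set side by side. The number of genes at or above 1 TPM ranged from 12422 to 16599 and was lowest in the untreated PRC1 libraries (12422 to 13986), in which mitochondrial genes also took 12.5% to 16.7% of the TPM against 4.28% to 6.69% elsewhere. Ring1 was at 8.61 and 10.4 TPM in WT Aundiff and at 0.03 to 0.25 in all 8 PRC1 libraries. Rnf2 was at 28.3 and 47.6 TPM in untreated PRC1ctrl and 56.7 and 67.5 in PRC1cKO, and at 78.1 and 67.2 against 86.2 and 93.1 after Win18446, so it was in no comparison lower under the label PRC1cKO. A whole-gene TPM does not separate deleted from remaining exons, and the genotypes are therefore given as the labels of the libraries. The germ cell genes Ddx4 and Dazl stayed between 171 and 769 TPM in every library, and the 8 markers of undifferentiated spermatogonia summed to 675 and 787 TPM in WT Aundiff against 156 and 191 in WT Adiff, with 7 of 8 lower in Adiff by the test below.

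Promoter sequences are shown for 4 members on which the results below turn, first for their CG content and then for matches to a TCF/LEF motif. RefSeq (GRCm38.p6) gave 42 start sites for 34 of the 50 members, and the 250 bases before each start held a median of 21 CG dinucleotides, against 6 over the 32851 start sites of all genes. CG-rich promoters are the usual target of Polycomb complexes. Fzd9, higher in Adiff, had the 42 CG dinucleotides shown in capitals, on the minus strand at chr5:135251048-135251297. Tcf7l2, lower in 3 comparisons, had 30 before its annotated 5′ end on the plus strand (chr19:55741560-55741809) and 7 before an internal start 153501 bases downstream (chr19:55895071-55895320).
Fzd9: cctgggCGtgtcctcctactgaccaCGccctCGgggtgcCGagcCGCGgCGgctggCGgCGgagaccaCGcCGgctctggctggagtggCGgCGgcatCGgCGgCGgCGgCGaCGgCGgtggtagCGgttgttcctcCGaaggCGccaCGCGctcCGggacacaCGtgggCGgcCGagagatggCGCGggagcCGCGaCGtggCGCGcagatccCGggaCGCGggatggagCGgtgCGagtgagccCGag
Tcf7l2, 5′ start: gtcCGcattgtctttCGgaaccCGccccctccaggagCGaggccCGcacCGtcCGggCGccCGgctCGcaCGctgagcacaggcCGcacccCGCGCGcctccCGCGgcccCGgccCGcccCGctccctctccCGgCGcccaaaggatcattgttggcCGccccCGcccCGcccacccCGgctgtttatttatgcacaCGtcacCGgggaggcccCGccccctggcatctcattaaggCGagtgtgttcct
Tcf7l2, internal start: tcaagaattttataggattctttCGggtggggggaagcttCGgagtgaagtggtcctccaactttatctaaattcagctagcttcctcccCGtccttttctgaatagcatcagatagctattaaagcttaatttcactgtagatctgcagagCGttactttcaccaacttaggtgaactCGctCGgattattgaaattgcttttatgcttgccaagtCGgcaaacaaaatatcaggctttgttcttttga

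TCF/LEF factors recognise a short sequence of which ATCAAAG is a form, read as CTTTGAT on the other strand. Both letter strings, and no other form, were searched in the 250 bases before each start. A match to them was held by 3.21% of all 32851 windows. Among the members 2 of 42 windows did: Wnt11 on the plus strand at chr7:98834862-98835111, and 1 of the starts of Wnt5b, on the minus strand at chr6:119449387-119449636. The match, in capitals, began 51 bases before the start of Wnt11 and 71 bases before that of Wnt5b. This Wnt5b start is internal, 94961 bases downstream of the annotated 5′ end. No site can be read from a match alone.
Wnt11: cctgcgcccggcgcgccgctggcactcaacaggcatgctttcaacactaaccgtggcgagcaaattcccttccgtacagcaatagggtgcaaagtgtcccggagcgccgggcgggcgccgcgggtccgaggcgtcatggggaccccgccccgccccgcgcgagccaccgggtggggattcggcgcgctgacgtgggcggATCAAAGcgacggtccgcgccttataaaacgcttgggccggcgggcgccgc
Wnt5b: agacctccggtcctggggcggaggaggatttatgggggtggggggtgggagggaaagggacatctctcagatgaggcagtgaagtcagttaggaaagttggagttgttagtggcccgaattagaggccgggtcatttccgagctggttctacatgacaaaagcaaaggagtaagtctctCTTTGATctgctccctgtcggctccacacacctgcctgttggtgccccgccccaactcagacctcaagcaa

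Most of the pathway's ligands were scarce in these cells, while the TCF/LEF factors, both Axin genes and most R-spondins reached higher levels. Of the 50 members, 21 reached a group mean of 5 TPM in at least 1 group and 34 reached 1 TPM, whereas 14 stayed under 1 TPM in all 12 libraries and Dkk4 was listed at 0 in each. Among the 19 ligands, 3 reached 5 TPM (Wnt5b, Wnt11 and Wnt3, Wnt3 only in WT Adiff) and 7 stayed under 1 TPM throughout. All 4 TCF/LEF factors, both Axin genes, 5 of 10 Frizzled receptors, 3 of 4 R-spondins, 2 of 4 Sfrp genes, 1 of 4 Dickkopf genes and 1 of 3 LGR genes reached 5 TPM. In WT Aundiff the summed TPM of the TCF/LEF factors was 199 and 225, that of the Frizzled receptors 62.9 and 58.6, that of the R-spondins 58.2 and 56.2, and that of all ligands 20.6 and 25.5.

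**Figure D1:**
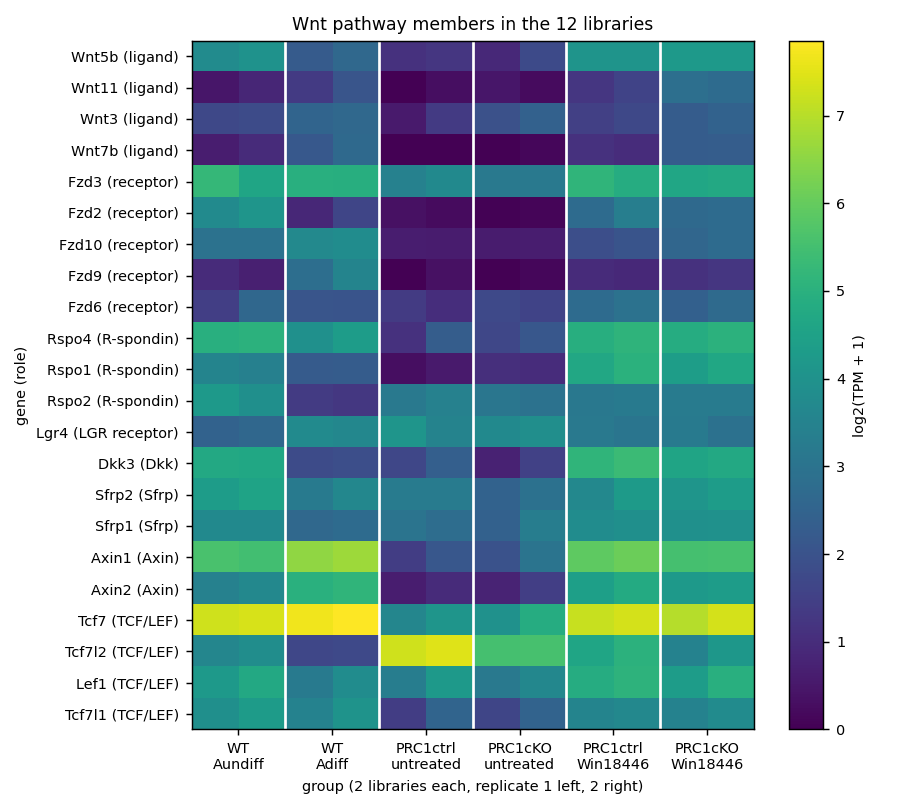
Level of the 22 members that reached a group mean of 5 TPM or were called in a comparison (rows, with their role) in the 12 libraries (columns, 2 per group), as log2(TPM + 1) in colour. Tcf7 is the brightest row in the libraries made with the stranded kit, Tcf7l2 in the untreated PRC1 libraries, where most other rows are darker.

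WT Aundiff and WT Adiff were compared to ask how the pathway's genes change as spermatogonia begin to differentiate. A gene was tested when 2 or more of the 4 libraries reached 1 TPM, with limma on log2(TPM + 1), and was called at a Benjamini-Hochberg adjusted p under 0.05 over all genes tested and a log2 fold change above 1 in either direction. Of the 50 members, 28 could be tested and 13 were called. Over all 15470 genes tested, 20.4% were called. In Adiff, 5 members rose (Fzd9, Wnt7b, Axin2, Lgr4 and Axin1; 11.1% of all genes were called higher) and 8 fell (Dkk3, Rspo2, Fzd2, Tcf7l2, Wnt5b, Rspo1, Sfrp1 and Sfrp2; 9.24% were called lower). Wnt7b and Fzd9, with Wnt11 and Fzd4, were under 1 TPM in both Aundiff libraries. These 4 were tested only because Adiff was higher, and their differences are given as values. The counts of 13 called and 5 risen include Fzd9 and Wnt7b. The members called higher that did not depend on Adiff to be tested were Axin2, Lgr4 and Axin1. The median log2 fold change was 0.02 over the tested members and 0.15 over all genes tested. The groups did not overlap for 23 of the 28 members, against 72.1% of all genes tested: 12 were higher (43.4% of all genes) and 11 lower (28.7%). The 12 include all 4 genes tested only through Adiff. With 2 libraries a group, an exact permutation test of a single gene cannot go below p = 0.33, so each call rests on limma's moderated variance.

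Among the ligands, Wnt5b fell, and Wnt7b was higher in Adiff. Wnt5b, a ligand that acts mainly without beta-catenin, was at 12.8 and 15.04 TPM in Aundiff and 3.80 and 5.24 in Adiff. The log2 fold change was -1.44 ± 0.23 (SE, n = 2 per group; limma adjusted p = 0.00581). Wnt7b went from 0.55 and 0.95 TPM to 3.5 and 5.47, and the log2 fold change was 1.63 ± 0.31. Both Adiff libraries were higher than both Aundiff libraries, and at these low levels the added pseudocount of 1 makes the fold smaller. Wnt3, a ligand of the canonical pathway, was at 2.24 and 2.46 against 4.81 and 5.25 TPM, a log2 difference of 0.85 ± 0.24 that stayed under the fold limit (limma adjusted p = 0.0335). Wnt11 was at 0.38 and 0.80 against 1.51 and 3.18 TPM (1.04 ± 0.35, limma adjusted p = 0.0592), with groups that did not overlap and no call. It was called with the replicate number as a block (limma adjusted p = 0.0294) and in the fit over all 12 libraries (limma adjusted p = 0.0238), while its adjusted p was 0.0606 to 0.231 under the other alternatives that gave a value. The 2 remaining tested ligands, Wnt7a and Wnt9a, were not called. Wnt5b was thus the most abundant ligand in Aundiff, while in Adiff Wnt3, Wnt5b, Wnt7b and Wnt9a all lay between 3.5 and 5.47 TPM.

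Of the Frizzled receptors, Fzd2 fell, Fzd9 was higher in Adiff and the others were not called. Fzd2 was at 12.4 and 16.0 TPM in Aundiff and 0.84 and 2.11 in Adiff, a log2 fold change of -2.66 ± 0.32 (SE, n = 2; limma adjusted p = 0.00258). Fzd9 was at 0.94 and 0.61 TPM in Aundiff and 6.22 and 10.7 in Adiff, which gave a log2 fold change of 2.38 with an SE of 0.32. In both cases the groups were far apart, although the 2 Adiff libraries themselves differed. Fzd10 was at 6.72 and 6.71 against 11.99 and 12.98 TPM and remained under the fold limit (0.80 ± 0.19, limma adjusted p = 0.0203). Fzd3, a receptor of planar cell polarity and the most abundant Frizzled in Aundiff, was at 36.4 and 23.7 against 29.8 and 29.4 TPM, with overlapping groups (0.01 ± 0.22, limma adjusted p = 0.982). Fzd6, its close relative, was at 1.75 and 5.12 against 3.22 and 3.13 TPM and overlapped as well.

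Of the R-spondins, 2 fell in Adiff, and Lgr4, their receptor, rose. Rspo2 fell from 17.7 and 14.1 TPM in Aundiff to 1.55 and 1.40 in Adiff, a log2 fold change of -2.76 ± 0.23 (SE, n = 2; limma adjusted p = 0.0012). Rspo1 was at 10.7 and 9.65 against 3.73 and 3.92 TPM (-1.21 ± 0.21, limma adjusted p = 0.00751). Rspo4 was the most abundant R-spondin in both groups, at 29.7 and 31.9 against 14.4 and 19.2 TPM, and its difference stayed under the fold limit (-0.85 ± 0.19, limma adjusted p = 0.0166). All 3 were lower in both Adiff libraries than in either Aundiff library, and their summed level with Rspo3 was 58.2 and 56.2 TPM in Aundiff and 19.7 and 24.5 in Adiff. Lgr4 was at 4.59 and 5.15 TPM in Aundiff and 12.5 and 11.5 in Adiff (1.15 ± 0.20, limma adjusted p = 0.00789). Lgr5 stayed at or under 0.42 TPM and Lgr6 at or under 2.19 TPM in every library.

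Among the Dickkopf and Sfrp antagonists, the 3 that could be tested fell. Dkk3, a member of the Dickkopf family that differs from the classical LRP antagonists, was at 25.6 and 24.4 TPM in Aundiff and 2.45 and 2.68 in Adiff. This was the largest log2 change among the tested members, -2.87 ± 0.20 (SE, n = 2; limma adjusted p = 0.000817). Sfrp1 was at 12.1 and 12.2 against 5.32 and 5.76 TPM (-1.01 ± 0.20, limma adjusted p = 0.0106). Sfrp2 was at 19.1 and 22.4 against 8.31 and 11.5 TPM (-1.01 ± 0.22, limma adjusted p = 0.0147). The groups of each of the 3 genes were separate, but both Sfrp changes lay at the fold limit. Dkk1, Dkk2, Dkk4, Sfrp4 and Sfrp5 stayed under 1 TPM in the WT libraries and were not tested. The sum of the 10 Sertoli cell markers moved in the direction of these 3 genes and of Rspo1 and Rspo2. It was 55.3 and 62.5 TPM in Aundiff and 38.1 and 39.2 in Adiff, with Clu as its largest part (27.3 and 31.3 against 18.8 and 19.6). Inha (1.63 and 4.24 against 3.76 and 4.98 TPM) and Dhh (0.41 and 0.41 against 0.76 and 0.52) had higher means in Adiff. Amh and Fshr stayed at or under 0.27 TPM in WT. Of the 6 Sertoli markers tested, 1 fell, and 3 were lower at an unadjusted p under 0.05. The part of Sertoli cell RNA in these differences was not tested.

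Inside the cell, both Axin genes rose and the TCF/LEF factors divided. Axin1, the scaffold of the destruction complex, was at 47.5 and 43.5 TPM in Aundiff and 92.6 and 103 in Adiff, a log2 fold change of 1.09 ± 0.14 (SE, n = 2; limma adjusted p = 0.00292). Axin2, a scaffold whose gene is also a widely used target of beta-catenin, was at 9.96 and 11.8 against 30.9 and 34.2 TPM (1.5 ± 0.18, limma adjusted p = 0.00243). Tcf7l2 went the other way, from 11.2 and 13.5 TPM to 2.19 and 2.31 (-2.04 ± 0.22, limma adjusted p = 0.00207). Tcf7 was by far the most abundant member in both groups, at 156 and 167 TPM in Aundiff and 206 and 230 in Adiff, a log2 difference of 0.43 ± 0.12 that was under the fold limit (limma adjusted p = 0.0349). Lef1 was at 17.5 and 25.5 against 8.15 and 13.1 TPM, with separate groups (-0.96 ± 0.28, limma adjusted p = 0.0398), and Tcf7l1, mostly known as a repressor, was at 14.1 and 19.0 against 10.1 and 15.3 TPM, with overlapping groups.

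**Figure D2:**
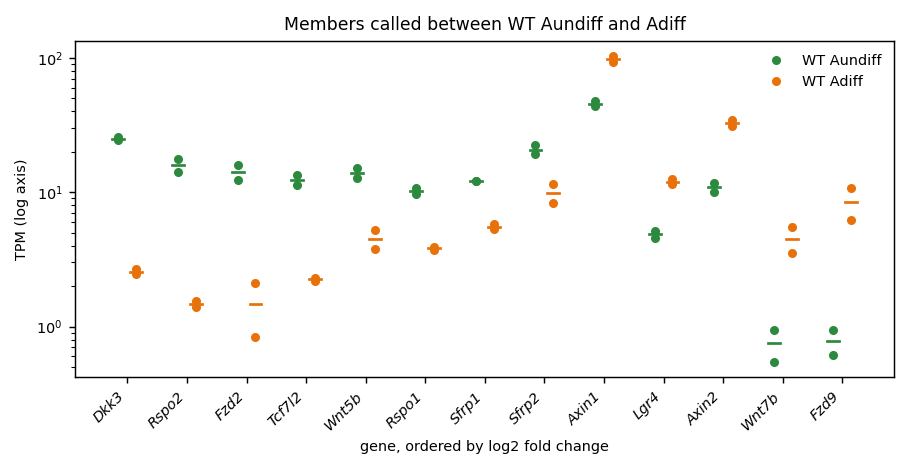
TPM on a log axis for the 13 members called between WT Aundiff (green) and WT Adiff (orange). Points are the 2 libraries of a group, short bars their mean, and genes run from the most negative log2 fold change (Dkk3, -2.87) to the most positive (Fzd9, 2.38), with no overlap between the groups of any gene shown.

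Of 57 further genes of the pathway, 51 could be tested in WT, 8 rose and 4 fell, with a median log2 fold change of 0.24. The called share of the list was 23.5%, close to the 20.4% of all genes tested (11.1% higher and 9.24% lower, median 0.15). Those that rose were the co-receptor Lrp5, from 5.58 and 7.49 to 24.6 and 27.6 TPM, the ligand-inactivating enzyme Notum, the feedback inhibitor Nkd1, Draxin, Dact3, Apc2, and the nuclear partners Bcl9l and Pygo1. Those that fell were the ligand-binding inhibitor Wif1, Apcdd1, Dact2 and the planar polarity gene Prickle1, the last from 14.4 and 15.2 to 3.29 and 4.17 TPM. Draxin was tested only through Adiff and Wif1 only through Aundiff, since both their libraries in the other group were under 1 TPM. Among 11 genes known as feedback targets of the pathway in many tissues, 8 could be tested, 4 rose (Axin2, Nkd1, Notum and Ccnd1) and 0 fell by limma, against 11.1% of all genes tested called higher. At an unadjusted p under 0.05, 5 were higher and 1 was lower, against 30.3% and 18.8% of all genes tested. The list holds 4 of the members (Axin2, Lgr5, Lef1 and Tcf7), and Nkd1 and Notum are also among the 8 genes counted as risen above. Ccnd1, which encodes cyclin D1, was at 27.8 and 32.3 TPM in Aundiff and 114 and 117 in Adiff.

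Some of the WT calls rested on single libraries or on the scaling. Rspo1 and Sfrp1 were no longer called without WT Aundiff replicate 1, Sfrp1 and Sfrp2 without WT Aundiff replicate 2 or WT Adiff replicate 1, and Wnt7b and Fzd9, under 1 TPM in Aundiff, could not be tested without either Adiff library. With the TPM rescaled by median-of-ratios factors, Axin1 (0.91) and Lgr4 (0.99) were under the fold limit and Lef1 and Rspo4 were called lower, 60.1% of all calls were lower instead of 45.3%, and the direction of each of the 13 called members was the same.

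The untreated PRC1cKO and PRC1ctrl libraries were compared to ask what the loss of PRC1 does in Aundiff at 2 months. Only Tcf7l2 was called among the members: 18 of 50 could be tested and 1 fell, against 2.16% of the 13953 genes tested called in either direction and 1.94% called lower. At an unadjusted limma p under 0.05, 2 members passed, against 14.2% of all genes tested. The median log2 difference of the tested members was -0.01, and 0.22 over all genes tested. The median SE of the members' log2 differences was 0.43, against 0.23 in WT, so that differences of the size seen in WT were in part not detectable in these libraries.

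Tcf7l2 was at 156 and 178 TPM in untreated PRC1ctrl and 45.6 and 46.0 in PRC1cKO, the widest gap between groups of any member in this comparison. The log2 fold change was -1.84 ± 0.26 (SE, n = 2; limma adjusted p = 0.0411). Wnt3 was at 0.49 and 1.51 TPM in PRC1ctrl and 2.83 and 4.44 in PRC1cKO, with separate groups and no call (1.24 ± 0.46, limma adjusted p = 0.311). It was called with the replicate number as a block (limma adjusted p = 0.0315) and in the fit over all 12 libraries (limma adjusted p = 0.0206). The Tcf7l2 call was lost on leaving out any 1 of the 4 libraries (log2 fold change of -1.94 to -1.75).

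The other tested members were not called and most lay low in these libraries. Dkk3 was at 2.19 and 4.24 TPM in PRC1ctrl and 0.68 and 1.85 in PRC1cKO (-0.90 ± 0.49, limma adjusted p = 0.493), and Sfrp2 at 8.67 and 8.63 against 4.5 and 6.70 (-0.57 ± 0.41). Rspo1 was at 0.22 and 0.49 against 1.08 and 1.01 TPM, Rspo2 at 8.06 and 10.1 against 7.48 and 6.78, Fzd3 at 10.01 and 12.2 against 8.08 and 8.12, and Fzd6 at 1.55 and 1.02 against 2.31 and 1.97. The groups of these genes did not overlap, as was the case for 10 of the 18 tested members and 44.8% of all genes tested. Of the 10, 3 were higher in PRC1cKO (27.5% of all genes) and 7 lower (17.3%). Rspo1, 1 of the 3, was under 1 TPM in both PRC1ctrl libraries and was tested only through PRC1cKO. Overlapping groups were found for Lgr4 (16.0 and 10.5 against 12.4 and 13.6 TPM), Lef1 (9.07 and 17.7 against 8.02 and 11.4), Tcf7 (11.3 and 15.9 against 14.6 and 28.1), Tcf7l1 (1.68 and 4.79 against 2.11 and 4.71) and Axin1 (1.68 and 3.38 against 2.96 and 7.04). They were found as well for Rspo4 (1.17 and 4 against 2.16 and 3.39 TPM), Sfrp1 (7.16 and 5.94 against 4.42 and 9.06) and Wnt5b (1.19 and 1.35 against 0.88 and 2.37). Axin2, Fzd2, Fzd9, Fzd10, Wnt7b and Wnt11 were at or under 1.72 TPM in all 4 libraries and were not tested. Of the 57 further pathway genes, 27 were tested and 0 were called by limma in either direction, against 2.16% of all genes tested. At an unadjusted p under 0.05 there were also 0, against 14.2% of all genes tested.

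PRC1cKO and PRC1ctrl Aundiff were also compared after Win18446, the inhibitor of retinoic acid synthesis. Wnt11 and Wnt7b rose and Tcf7l2 fell: 30 of the 50 members could be tested and 3 were called, against 12.2% of the 16521 genes tested. Of all genes tested, 1.27% were called higher and 10.9% lower. The median log2 difference was -0.02 over the tested members and -0.19 over all genes tested. The groups did not overlap for 11 members that were higher and 9 that were lower, against 20.1% and 49.3% of all genes tested and 69.4% in either direction. Among the 11 are Fzd9, Wnt10a and Wnt7a, which were under 1 TPM in both PRC1ctrl libraries and were tested only through PRC1cKO.

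Wnt11 was at 1.39 and 2.02 TPM in PRC1ctrl and 6.28 and 5.71 in PRC1cKO, a log2 fold change of 1.38 ± 0.19 (SE, n = 2; limma adjusted p = 0.00405). Wnt7b was at 1.19 and 1.01 against 3.86 and 4.01 TPM (1.23 ± 0.18, limma adjusted p = 0.00412). Both ligands were higher in each PRC1cKO library than in either control. Some markers of differentiating spermatogonia moved beside them: 3 of 6 rose (Kit, Dmrtb1 and Esx1) and 0 fell, with 4 higher and 1 lower at an unadjusted limma p under 0.05. Kit was at 6.48 and 8.15 TPM in PRC1ctrl and 20.4 and 22.0 in PRC1cKO, against 247 and 245 in WT Adiff. Stra8 went the other way, at 10.7 and 12.4 TPM in PRC1ctrl and 7.91 and 7.9 in PRC1cKO. The 6 markers summed to 411 and 449 against 464 and 499 TPM. Sohlh1, the largest part of these sums, was at 371 and 398 against 361 and 397 TPM. The part of differentiating cells in the ligand values was not tested. Wnt3 was at 1.78 and 2.26 against 3.87 and 4.55 TPM, again with separate groups, and lay under the fold limit (0.79 ± 0.19, limma adjusted p = 0.0209), while Wnt5b, the most abundant ligand, was at 15.6 and 15.8 against 17.7 and 17.9 (0.17 ± 0.13, limma adjusted p = 0.353). The summed TPM of the 19 ligands was 31.4 and 33.6 in PRC1ctrl and 43.6 and 43.3 in PRC1cKO. All 3 of Wnt11, Wnt7b and Wnt3 were also higher in both WT Adiff libraries than in either WT Aundiff library. Wnt11 and Wnt7b were under 1 TPM in both WT Aundiff libraries and were tested in WT only through Adiff. Their WT differences are therefore given as values. In WT Wnt7b was called, and Wnt11 only with the block or the fit over all 12 libraries.

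**Figure D3:**
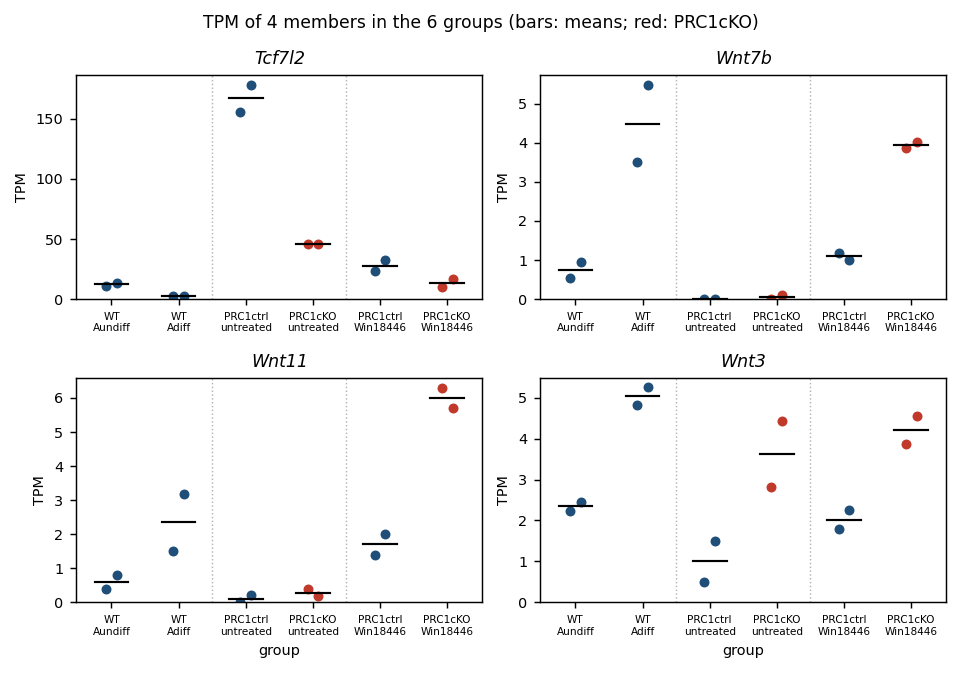
TPM of Tcf7l2, Wnt7b, Wnt11 and Wnt3 in the 6 groups, with 2 libraries per group as points (red under the label PRC1cKO) and the group mean as a bar. Dotted lines part the 3 comparisons: Tcf7l2 is lower in the second group of each, and Wnt7b and Wnt11 are near 0 in the untreated PRC1 libraries and higher in PRC1cKO than in PRC1ctrl after Win18446.

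Tcf7l2 was at 23.5 and 32.4 TPM in PRC1ctrl and 10.2 and 16.7 in PRC1cKO after Win18446 (-1.02 ± 0.26, limma adjusted p = 0.0315). The groups did not overlap, but the change lay at the fold limit, and the call was lost without PRC1ctrl replicate 2 (-0.80, limma adjusted p = 0.0784) or PRC1cKO replicate 1 (-0.69, limma adjusted p = 0.119), with median-of-ratios scaling (-0.79, limma adjusted p = 0.0548), without the filter on low values (limma adjusted p = 0.0971) and without the trend and robust options (limma adjusted p = 0.0515). The drop of Tcf7l2 was therefore in the same direction in all 3 comparisons and all their alternatives, with a call that was stable to leaving out a library in WT alone. The marker sums of spermatids and of undifferentiated and differentiating spermatogonia moved beside it. The 5 spermatid markers summed to 746 and 1735 TPM in untreated PRC1ctrl and 57.3 and 49.2 in PRC1cKO, and 4 of 4 tested fell. After Win18446 they summed to 127 and 116 against 16.9 and 17.1, and 3 of 4 tested fell. In WT they summed to 759 and 836 in Aundiff and 520 and 704 in Adiff, with 0 of 5 called by limma and 2 lower at an unadjusted p under 0.05. The 8 markers of undifferentiated spermatogonia summed to 827 and 1097 against 382 and 453 TPM in the untreated libraries and to 596 and 716 against 448 and 526 after Win18446, with 1 of 8 called lower each time. The largest parts of the untreated sums were Sall4 (517 and 704 against 266 and 314 TPM) and Nanos3 (286 and 349 against 92.4 and 80.6). Gfra1, Zbtb16, Etv5 and Ret had higher means in untreated PRC1cKO, and Id4 and Neurog3 lower ones. The 6 markers of differentiating spermatogonia summed to 205 and 187 against 454 and 450 TPM in the untreated libraries, with 0 of 6 called by limma and 3 higher at an unadjusted p under 0.05. Stra8 was the largest part of these sums, at 174 and 101 against 363 and 262 TPM. In WT, where Tcf7l2 also fell, they summed to 321 and 361 TPM in Aundiff and 1372 and 1350 in Adiff and 5 of 6 rose, and after Win18446 3 of 6 rose, as given above. The part of these cells in the Tcf7l2 values was not tested, and in sorted bulk RNA fewer cells of a type and less RNA per cell cannot be told apart.

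The receptors and R-spondins were not called after Win18446. Fzd10 was at 2.73 and 3.09 TPM in PRC1ctrl and 5.04 and 5.72 in PRC1cKO, a log2 difference of 0.71 ± 0.17 under the fold limit (limma adjusted p = 0.0227). Fzd3 was at 34.5 and 27.9 against 23.8 and 25.8 TPM, Fzd6 at 5.68 and 6.71 against 4.28 and 5.51, Fzd2 at 5.73 and 9.27 against 5.37 and 5.75, and Fzd9 at 0.97 and 0.86 against 1.17 and 1.39. The groups of Fzd2 overlapped, and those of the other 4 receptors did not, with Fzd9 tested only through PRC1cKO. Rspo4 was at 29.2 and 33.2 against 28.0 and 32.3 TPM, Rspo1 at 25.1 and 31.3 against 19.7 and 24.8, Rspo2 at 7.85 and 8.40 against 8.73 and 8.64, and Lgr4 at 8.04 and 7.33 against 8.35 and 6.63. None of these 4 differences passed the test, and their log2 values lay between -0.33 and 0.09.

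The antagonists and the Axin genes also stayed within the fold limit. Dkk3 was at 34.3 and 39.7 TPM in PRC1ctrl and 23.0 and 25.8 in PRC1cKO, lower in both (-0.58 ± 0.14, limma adjusted p = 0.0205). Sfrp1 was at 13.0 and 14.2 against 14.3 and 14.7 TPM and Sfrp2 at 11.6 and 18.4 against 16.2 and 19.4. Axin1 was at 58.9 and 67.2 against 45.7 and 46.7 TPM (-0.44 ± 0.12, limma adjusted p = 0.0333) and Axin2 at 20.6 and 26.7 against 17.5 and 19.4 (-0.33 ± 0.16, limma adjusted p = 0.166). Tcf7 was at 144 and 161 against 126 and 162 TPM, Lef1 at 28.0 and 32.8 against 19.3 and 30.1, and Tcf7l1 at 10.6 and 11.7 against 10.1 and 12.7, each with overlapping groups.

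Of the 57 further pathway genes, 54 were tested after Win18446, 1 rose and 4 fell, with a median log2 difference of -0.26. The called share was 9.26%, below the 12.2% of all genes tested (1.27% higher and 10.9% lower, median -0.19), and the genes called are given as values. Shisa6, an inhibitor of the pathway in the testis, was at 0.34 and 0.28 against 4.39 and 2.47 TPM (1.72 ± 0.24, limma adjusted p = 0.00412) and was tested only through PRC1cKO. The genes that fell were Apc, a core part of the destruction complex, from 65.1 and 62.1 to 10.9 and 21.4 TPM, its membrane partner Amer1, from 2.72 and 2.52 to 0.58 and 0.56, Znrf3, the ligase that removes Frizzled receptors, from 17.5 and 21.0 to 8.03 and 8.98, and Bcl9, a co-factor of beta-catenin, from 41.8 and 51.9 to 14.4 and 22.0. Amer1 was tested only through PRC1ctrl. Of the 11 feedback targets, 8 were tested and 1 fell (Znrf3).

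**Figure D4:**
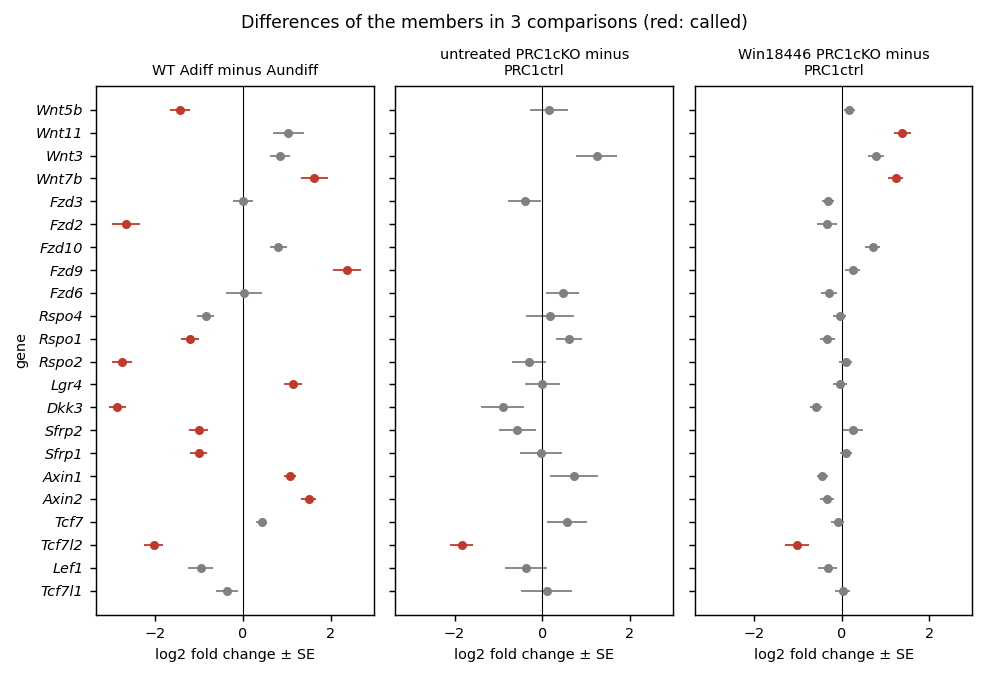
Log2 fold change (horizontal axis, with SE) of the 22 members described by value in the 3 comparisons. Red points were called and grey points tested without a call, and a missing point was not tested. Dkk3, Rspo2 and Fzd2 lie furthest to the left in WT, and Tcf7l2 is the only member that is red in all 3 panels.

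An interaction term over the 8 PRC1 libraries asked whether the difference between PRC1cKO and PRC1ctrl changed with Win18446. Of 31 tested members 1 was called, Wnt7b, and 7.74% of the 18354 genes tested (2.76% higher and 4.98% lower after Win18446). Wnt7b and 8 other members were under 1 TPM in all 4 untreated libraries and entered the test only through Win18446. Wnt7b was at 0.01 and 0 TPM in untreated PRC1ctrl and 0 and 0.10 in untreated PRC1cKO, and the difference between the labels was larger after Win18446 by 1.17 ± 0.23 on the log2 scale (limma adjusted p = 0.0309). At this level an untreated difference could hardly appear, and the term repeats the difference of 1.23 seen after Win18446. The call was lost with a pseudocount of 0.1, without the filter, with a mean TPM of at least 1, and in 7 of 8 fits that left out a library (limma adjusted p of 0.0275 to 0.316 over the alternatives that gave a value). With a mean TPM of at least 5, Wnt7b was not tested. Wnt11 lay close behind, at 0 and 0.22 against 0.38 and 0.18 TPM when untreated (1.17 ± 0.31, limma adjusted p = 0.0694). For Tcf7l2 the interaction was not called (0.82 ± 0.40, limma adjusted p = 0.267).

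In PRC1ctrl the untreated and Win18446 libraries differed in the level of most members, and this difference goes with GC content. In this genotype, 24 of the 28 members at or above 1 TPM in 2 or more of the 4 libraries were lower in the untreated libraries, with a median log2 difference of -1.34, against -1.11 over 17122 genes. Axin1 was at 1.68 to 7.04 TPM in the 4 untreated PRC1 libraries and 45.7 to 67.2 in the 4 after Win18446. Tcf7l2 stood on the other side, at 156 and 178 against 23.5 and 32.4 TPM in PRC1ctrl. Across genes, which share the libraries and are not independent, the log2 difference correlated with the GC content of the longest transcript with r = -0.44 over all 17122 genes and r = -0.49 over the 28 members. Genes with at least 60% GC had a median difference of -2.50 (728 genes) and those under 45% GC of -0.05 (4684 genes). The members had a median GC content of 52.8%, against 49.2% over all genes. The part of the kit in these levels was not tested, since every untreated PRC1 library was made with the low-input kit.

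**Figure D5:**
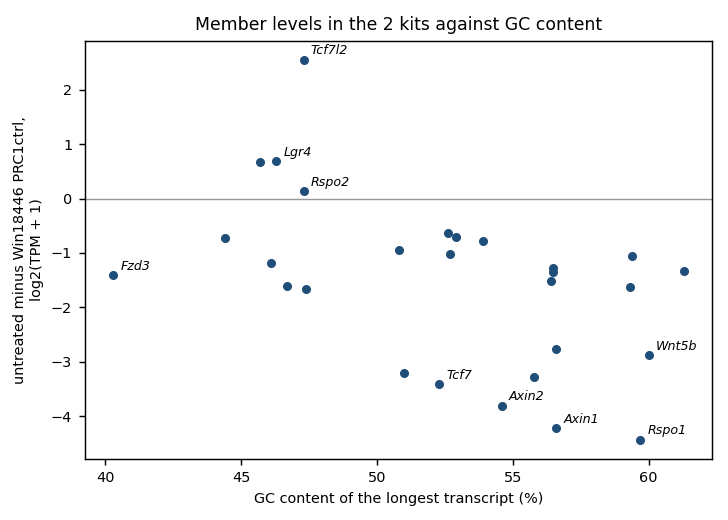
Difference between untreated and Win18446-treated PRC1ctrl (means of log2(TPM + 1), vertical axis) against the GC content of the longest transcript (horizontal axis, %) for the 28 members at or above 1 TPM in 2 or more of these 4 libraries. Of the 28 points 24 lie below 0, with Rspo1 and Axin1 lowest and Tcf7l2 highest.

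Somatic cells of the testis are a known source of Wnt ligands and R-spondins. The sort on E-Cadherin and CD9 was designed to leave them out, and their markers differed widely between libraries. The 10 Sertoli cell markers summed to 38.1 to 62.5 TPM in the WT libraries (lower in Adiff, as given above), 22.7 to 59.6 in the untreated PRC1 libraries and 130 to 229 after Win18446, where 0 of 8 tested were called by limma between the labels and 0 had an unadjusted p under 0.05. The 6 Leydig cell markers summed to 10.7 to 45 TPM in WT, and to 427 and 85.2 in PRC1ctrl against 83.3 and 23.4 in PRC1cKO after Win18446, with 0 of 6 called by limma and 1 lower at an unadjusted p under 0.05. In the untreated libraries they summed to 1.36 and 1.32 against 22.3 and 62.3 TPM, and 1 of 6 rose, with all 6 at an unadjusted p under 0.05. The 19 ligands summed to 31.4 to 43.6 TPM after Win18446. Marker and ligand sums are over different genes, so their sizes cannot be compared. Clu, at 77.1 to 138 TPM after Win18446, was the largest part of the Sertoli sum there. Of 4 tested endothelial markers in WT, 0 were called by limma and 2 were lower in Adiff at an unadjusted p under 0.05. The part of somatic RNA in the levels of Rspo1, Rspo4, Dkk3 and the ligands was not tested.

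The members lie on many chromosomes, and 4 pairs of ligand genes are neighbours (GRCm38): Wnt6 and Wnt10a on chromosome 1, 6193 bases apart, Wnt3a and Wnt9a on chromosome 11, 16175 bases apart, Wnt9b and Wnt3 on chromosome 11, 24328 bases apart, and Wnt10b and Wnt1 on chromosome 15, 11706 bases apart. Wnt3 reached 5.25 TPM, while its neighbour Wnt9b stayed at or under 1.11 TPM in every library. Wnt7b lies at chr15:85535437-85582473, Wnt11 at chr7:98835112-98855195 and Tcf7l2 at chr19:55741820-55933654. Exons of a gene on the other strand overlap 6.6% of the exon bases of Wnt7b, 8.8% of those of Wnt11 and 16.1% of those of Sfrp2, and in libraries made without strand, reads there cannot be told apart.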

How the data were processed

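The authors aligned trimmed reads to the mouse genome (GRCm38/mm10) and deposited TPM for each gene, computed with RSEM 1.3.3. The submitters' processing notes also name Trim Galore 0.6.6, HISAT2 2.2.1, SAMtools 1.9, HTSeq 1.6.0 and DESeq2 1.28.1. TPM keeps no read number, so sequencing depth and counting error are unknown, and a rise in some genes lowers the share of others. Precision was taken from the 2 libraries of a group, which the study describes as independent biological replicates.

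Values were transformed to log2(TPM + 1) and fitted with limma 3.58.1 in R 4.3.3 (two-sided, trend and robust options) over all genes that reached 1 TPM in 2 or more of the libraries of the fit. The fits used 4 libraries, or 8 for the interaction, and a fold change is that of TPM + 1, which understates changes of low genes. Tables and figures were made with Python 3.11.15, pandas 2.3.3, numpy 2.4.6 and matplotlib 3.10.9. The fit was tested on simulated data with planted changes, in which false calls took a larger share of the calls than the adjusted p threshold allows.

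The members, the other gene lists and the tests were chosen with earlier results of these data known. Members called in a comparison or with a group mean of at least 5 TPM were given by value, and the others by counts and range. Gene coordinates are those of the deposited table, and 49 of 50 members had the same ones in gencode vM21, from which GC content and exon overlaps were taken. Promoter sequences are those of RefSeq (GRCm38.p6). Alternatives were a pseudocount of 0.1, no filter, a mean TPM of at least 1 or 5, median-of-ratios scaling, a replicate block, all 12 libraries in the fit, moderation without the trend and robust options, and leaving out each library.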

Additional observations from a re-analysis of the deposited data

Results flagged for a closer look

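The interaction term of limma over the 8 PRC1 libraries was called for 3 of the genes described. For Wnt7b the log2 difference between the labels was larger after Win18446 by 1.17 (SE 0.23, limma adjusted p = 0.0309), and for Shisa6, an inhibitor of the pathway, by 1.67 (SE 0.37, limma adjusted p = 0.0444). For Amer1, a partner of Apc, the change with Win18446 was -1.78 (SE 0.28, limma adjusted p = 0.0185). Wnt7b was at or under 0.10 TPM, Shisa6 at or under 0.33 TPM and Amer1 at or under 1.55 TPM in all 4 untreated PRC1 libraries. Wnt7b and Shisa6 entered the test only through the Win18446 libraries, so the term repeats their difference after Win18446 and is no evidence of how they differ when untreated. Under the alternatives that gave a value, the Shisa6 call was lost in all 13 (limma adjusted p of 0.0523 to 0.244), the Wnt7b call in 10 of 15, 7 of them on leaving out a library (0.0275 to 0.316), and the Amer1 call in 5 of 15, each on leaving out a library (0.00637 to 0.11). Treatment and kit cannot be told apart in this term.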

How the results depend on the processing

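In WT, 9 to 14 members were called on leaving out 1 library and 11 to 16 under the other alternatives, against 13, and 2183 to 3120 genes were called on leaving out 1 library, against 3154. The untreated comparison depended most on the settings. Its 301 called genes became 0 with no filter on low values, 96 with a mean TPM of at least 5, 914 with median-of-ratios scaling, 1711 with the fit over all 12 libraries and 78 to 168 on leaving out 1 library. Its 1 called member (Tcf7l2) was lost with no filter, without the trend and robust options and on leaving out any 1 library (0 members in each), and 2 members were called with the fit over all 12 libraries. After Win18446, 5 members were called with a pseudocount of 0.1 (Wnt3 and Wnt10a were added), 1 member and 955 genes with a mean TPM of at least 5, and 2 to 3 members and 1189 to 2120 genes on leaving out 1 library; 1189 were left without PRC1ctrl replicate 2. With a mean TPM of at least 5, Wnt11 and Wnt7b were filtered out and not tested. Median-of-ratios scaling moved the share of calls that were lower from 89.6% to 76.7%. The interaction called 1420 genes, and 469 with a pseudocount of 0.1, 787 with no filter, 705 and 176 with a mean TPM of at least 1 or 5, and 21 to 1436 on leaving out 1 library (1436 without untreated PRC1ctrl replicate 2, 1099 without untreated PRC1cKO replicate 1 and at most 664 without any of the other 6); Wnt7b was called in none of those 4 settings (0 members) and in 1 of the 8 fits that left out a library (0 to 1 members). In this term Wnt7b was not tested with a mean TPM of at least 5, and median-of-ratios scaling moved the share of lower calls from 64.4% to 22.4%.

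Median-of-ratios scaling moved the median log2 difference of all genes from 0.15 to -0.0056 in WT, from 0.22 to -0.04 untreated, from -0.19 to 0.03 after Win18446 and from -0.41 to 0.14 in the interaction. Of the members given by value, directions reversed only for those without a call in that comparison. With this scaling they were, in WT, Fzd3 (-0.16) and Fzd6 (-0.10), in the untreated comparison Lgr4 (-0.30), Rspo4 (-0.027), Tcf7l1 (-0.13) and Wnt5b (-0.053), and after Win18446 Lgr4 (0.18), Rspo4 (0.19) and Tcf7 (0.15). On leaving out 1 library the log2 value crossed 0 in WT for Fzd6 (-0.55 to 0.60) and Fzd3 (-0.29 to 0.31), in the untreated comparison for Rspo4 (-0.42 to 0.78), Sfrp1 (-0.47 to 0.42), Tcf7l1 (-0.46 to 0.65), Lgr4 (-0.28 to 0.28), Lef1 (-0.82 to 0.071) and Wnt5b (-0.27 to 0.57), and after Win18446 for Lgr4 (-0.19 to 0.11), Sfrp2 (-0.053 to 0.57), Tcf7l1 (-0.13 to 0.17), Rspo4 (-0.15 to 0.0515) and Tcf7 (-0.27 to 0.090).

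Replicate numbers are shared between groups, but the labels do not say that a number marks a shared preparation. Their deviations from the group means correlated with r = 0.158 in WT, 0.381 untreated and 0.122 after Win18446. With the replicate block, the untreated comparison called 2172 genes, 50.6% of them lower instead of 89.7%, and 2 members (Tcf7l2 and Wnt3), WT 3235 genes and 14 members, Win18446 2077 genes and 3 members, and the interaction 1589 genes and 1 member. The cause of these changes was not tested. Without read counts, low members such as Wnt7b and Wnt11 in the untreated libraries have no counting error that could be given.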
